A study of Mus musculus with 11 samples.

Results

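The ID factors and the feedback genes of bone morphogenetic protein (BMP) signalling were followed in cultured mouse palatal mesenchyme after 1 h of PDGFA or FGF1. The set held 10 genes: the 4 ID genes Id1, Id2, Id3 and Id4, the inhibitory SMAD genes Smad6 and Smad7, Atoh8, the decoy receptor gene Bambi, the ligand gene Bmp4 and the antagonist gene Grem1. They were found by matching the accessions of the expression table to gene symbols, and each matched 1 of the table's 23286 rows. All 10 reached 1 FPKM (a fragment count divided by transcript length and by the mapped total) in at least 1 group, and so belonged to the 11702 rows that were compared. The genes were chosen by name with the FPKM values of these same groups already known, so their levels and differences are given as a description, with no test.

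Mouse embryonic palatal mesenchyme cells are primary cells grown from the embryonic palate, here taken at stage E13.5. They were grown in medium with 10% serum and then kept overnight in 0.1% serum. The starved group (4 libraries) received nothing more, the PDGFA group (4 libraries) received 30 ng/mL PDGFA for 1 h, and the FGF1 group (3 libraries) was given FGF1 at 50 ng/mL together with heparin at 1 µg/mL, also for 1 h. Heparin was given in the FGF1 group alone, so its effect and that of FGF1 cannot be told apart. The labels name no mouse strain and do not say whether the libraries of a group came from separate embryos or cultures. Polyadenylated RNA was sequenced.

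The deposited table holds 1 FPKM per gene and group with a lower and an upper bound, and no value per library. Brackets after an FPKM below hold these bounds, whose confidence level is not stated. A gene was called higher or lower where its interval in one group did not reach its interval in the other. A second rule called a difference that exceeded the root of the summed squares of the facing half-widths of both intervals. The median half-width of the interval was 25.6% of the FPKM in starved, 49.6% in PDGFA and 34.7% in FGF1 cells, so the PDGFA values are the least certain. In RNA from a whole culture, fewer cells of a type and less RNA per cell cannot be told apart.

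BMP ligands bind pairs of serine/threonine kinase receptors, which phosphorylate SMAD transcription factors that move to the nucleus with SMAD4. The ID genes are among the best known direct targets of these SMADs. ID proteins have a helix-loop-helix domain but no basic region, so they pair with basic helix-loop-helix factors and keep them off DNA. SMAD6 and SMAD7 close a negative loop by blocking the receptors and the receptor-activated SMADs, BAMBI is a receptor-like protein without a kinase domain that dampens signalling, and Gremlin 1 binds BMP ligands outside the cell. In the developing palate BMP4 acts between epithelium and mesenchyme. ID genes are also known as early serum and growth factor responsive genes.

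Of the ID genes, Id1 and Id3 rose with PDGFA, Id2 stood above its starved level with overlapping intervals, and Id4 stood at about its starved level. Id1 had 17.3 FPKM [10.3 to 22.0] in starved cells, 76.3 [30.0 to 122] with PDGFA and 23.0 [12.7 to 32.6] with FGF1. The PDGFA value was 4.42 times the starved value, a log2 fold of 2.11 on FPKM + 0.5 that ranked 108 among the 11702 rows. Its lower bound lay 7.98 FPKM above the upper bound of starved cells, while the FGF1 interval overlapped both others.

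Id3 was the most abundant ID gene in every group. It had 47.7 FPKM [30.1 to 57.5] in starved cells, 134 [59.1 to 208] with PDGFA and 55.5 [31.8 to 77.1] with FGF1. The PDGFA level was 2.80 times the starved one (log2 fold 1.48), but its interval cleared that of starved cells by only 1.56 FPKM. Id3 was no longer called with upper-quartile scaling (log2 fold 1.38). It also lost its call with the trend on base composition, length and level described below removed (log2 fold 1.29).

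Id2 had 16.4 FPKM [10.8 to 20.6] in starved cells, 29.7 [15.1 to 44.4] with PDGFA and 15.6 [9.28 to 21.9] with FGF1. Its PDGFA level was 1.81 times the starved level (log2 fold 0.84), and the difference of 13.4 FPKM had a combined interval of -1.92 to 29.0, which spans 0. Id4 had 37.0 FPKM [29.0 to 45.0], 35.2 [18.2 to 52.3] and 39.9 [26.9 to 52.8] in the same order. Its 3 intervals overlapped throughout, and its log2 folds were -0.07 with PDGFA and 0.11 with FGF1. Id4 was the second most abundant ID gene in starved cells and the third with PDGFA, where Id1 stood above it with an interval that overlapped its own.

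**Figure D1:**
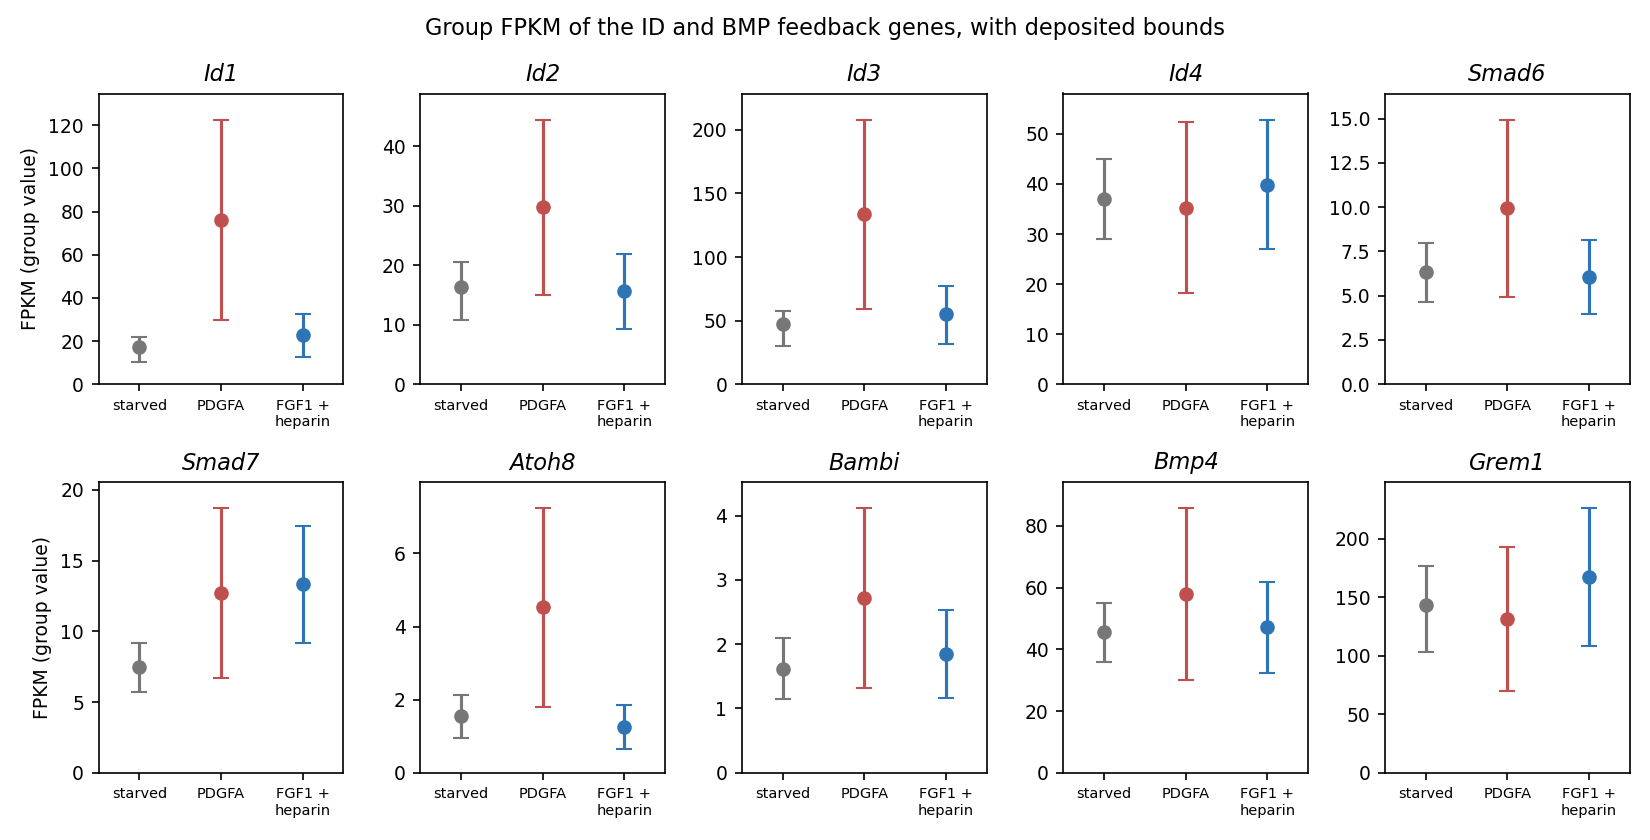
Group FPKM (vertical axes, each starting at 0) of the 10 genes in starved, PDGFA and FGF1 with heparin cells; points are the deposited group values and bars run from the deposited lower to the upper bound. The PDGFA interval of Id1 and of Id3 lies above that of starved cells, and the starved and FGF1 intervals of Smad7 meet at a single value.

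Among the inhibitory SMAD genes, Smad7 stood above its starved level with both ligands and Smad6 with PDGFA, with intervals that overlapped or touched. Smad7 had 7.45 FPKM [5.71 to 9.18] in starved cells, 12.7 [6.68 to 18.7] with PDGFA and 13.3 [9.18 to 17.5] with FGF1. The upper bound in starved cells and the lower bound in FGF1 cells were the same deposited number, so the intervals touched and Smad7 was not called by the first rule. By the second rule it was called higher with FGF1: the difference was 5.88 FPKM with a combined interval of 1.38 to 10.4. That is a ratio of 1.79, which ranked 84 among all rows by its log2 fold of 0.80. With PDGFA the ratio was 1.70, and the combined interval of the difference, -1.01 to 11.5 FPKM, spans 0. Smad6 had 6.31 FPKM [4.64 to 7.96] in starved cells, 9.93 [4.94 to 14.9] with PDGFA and 6.04 [3.95 to 8.14] with FGF1, so that its FGF1 value sat just below the starved one and its PDGFA value was 1.57 times it.

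Atoh8 encodes a basic helix-loop-helix factor and is a BMP target in other cell types. It was low, with 1.55 FPKM [0.954 to 2.13] in starved cells, 4.53 [1.81 to 7.23] with PDGFA and 1.26 [0.663 to 1.84] with FGF1. The PDGFA level was 2.92 times the starved one (log2 fold 1.29), and the intervals overlapped by 0.323 FPKM. By the second rule Atoh8 was called higher with PDGFA, with a difference of 2.97 FPKM and a combined interval of 0.197 to 5.74. With FGF1 it stood below starved cells at a log2 fold of -0.22, the lowest of the 10 genes, and the intervals overlapped. Bambi, also low, had 1.62 FPKM [1.14 to 2.10], 2.72 [1.31 to 4.11] and 1.84 [1.16 to 2.52] in starved, PDGFA and FGF1 cells. All of its intervals overlapped, although its PDGFA value was 1.68 times the starved value.

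The ligand and antagonist genes of the set were abundant and stood close to their starved levels. Bmp4 had 45.6 FPKM [36.0 to 55.2] in starved cells, 58.0 [30.2 to 85.7] with PDGFA and 47.1 [32.4 to 61.8] with FGF1. Grem1, the most abundant of the 10 genes in starved and FGF1 cells, had 143 FPKM [103 to 177], 132 [70.0 to 193] and 167 [109 to 226]. Its PDGFA level was close to that of Id3, and those intervals overlapped widely. Neither gene was called by either rule in any comparison.

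On mm10, as the table gives their loci, Id1 is at chr2:152736274-152737410, Id2 at chr12:25093799-25096092, Id3 at chr4:136143822-136145392, Smad6 at chr9:63953076-64022059, Smad7 at chr18:75367365-75395934, Atoh8 at chr6:72206177-72235577, Bambi at chr18:3507957-3516404 and Grem1 at chr2:113748675-113758648. The locus given for Id4, chr13:48044231-48264036, reaches far upstream of the RefSeq gene and overlaps the row of A330033J07Rik, and that for Bmp4, chr14:46379524-46390599, overlaps the row of Gm15217. Whether the counting used strand is not given in the sources used here, so reads in those overlaps cannot be assigned with certainty. None of the 31-base words of the Id1, Id3, Smad6, Smad7 and Atoh8 transcripts occurred in transcripts of another gene, while 3.15% of those of Id2 did, all in 1 other gene, and at most 3.92% for the rest.

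In all, 2 of the 10 genes (Id1 and Id3) were called higher with PDGFA by intervals lying apart and 3 by the second rule (with Atoh8), and none was called lower. Over all compared rows these shares were 0.308% higher and 0% lower by the first rule, and 0.53% higher and 0.0769% lower by the second. The values compared here are those on which the genes were chosen, so nothing is read from the contrast with these shares. The PDGFA value was above the starved value for 8 of the 10 genes, with a median log2 fold of 0.67, against a median of -0.0029 and 49.3% of rows above 0 over all compared rows.

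With FGF1, none of the 10 was called by intervals lying apart, where 0.538% of all rows were called higher and 0.0171% lower. The second rule called 1 gene higher, Smad7, where it called 0.88% of rows higher and 0.171% lower. The FGF1 value was above the starved value for 7 genes, with a median log2 fold of 0.12, against 0.02 and 56.0% of rows above 0 over all rows. The 2 comparisons share the starved group, so the values are set side by side without a measure of their agreement.

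**Figure D2:**
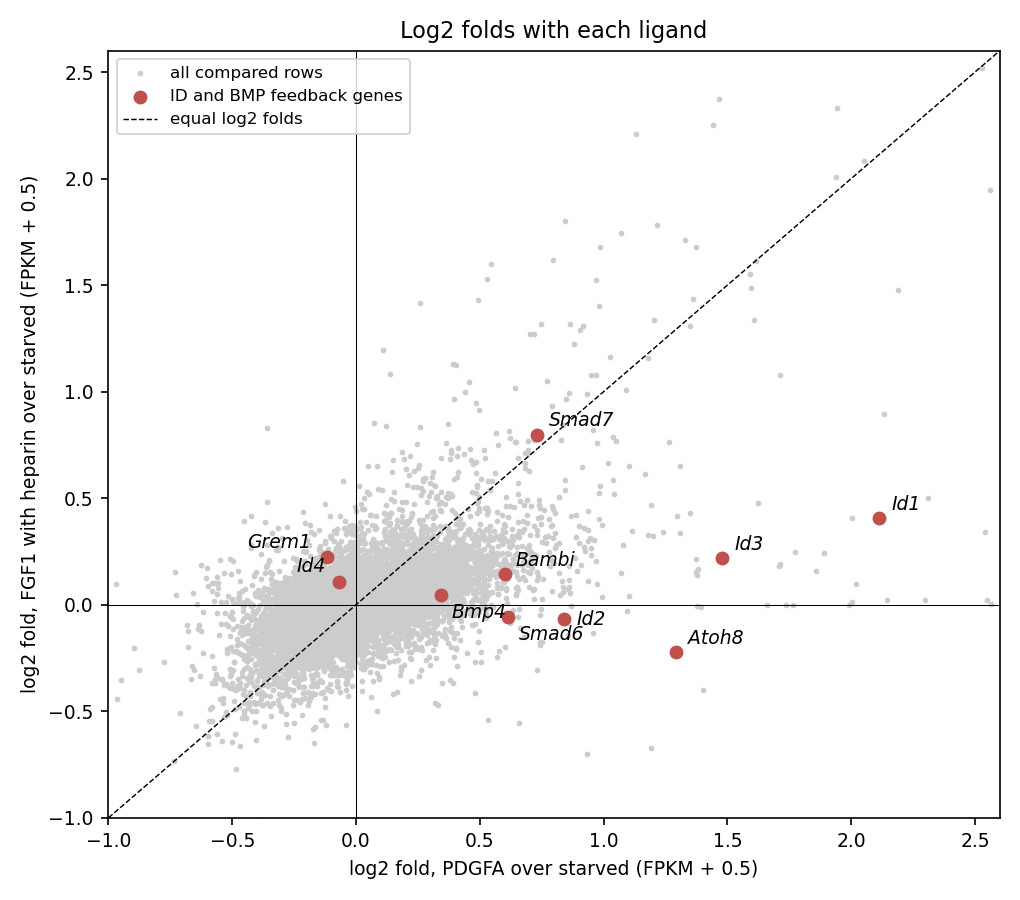
Log2 fold of PDGFA over starved (horizontal) and of FGF1 with heparin over starved (vertical), both on FPKM + 0.5, for the compared rows (grey; 123 lie outside the axes) and the 10 genes (red). Id1, Id3 and Atoh8 lie far to the right at log2 folds of 2.11, 1.48 and 1.29 with PDGFA, and Smad7 is the gene of the set nearest to the line of equal folds among those above 0.5 with PDGFA.

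Between the ligands, the log2 folds farthest from 0 were those of Id1, Atoh8 and Id3. The FGF1 level was 0.302 times the PDGFA level for Id1, 0.278 times for Atoh8 and 0.416 times for Id3. The intervals overlapped for all 3, by 2.59 FPKM for Id1, by 0.0324 FPKM for Atoh8 and by 18.0 FPKM for Id3. By the second rule all 3 were lower with FGF1: the difference was -53.2 FPKM for Id1 with a combined interval of -101 to -5.97, -3.27 for Atoh8 with -6.03 to -0.489, and -78.1 for Id3 with -156 to -0.498. Smad7 had a ratio of 1.05 and a difference of 0.645 FPKM with a combined interval of -6.66 to 7.94, which spans 0. Id2 and Smad6 stood at 0.525 and 0.609 times their PDGFA levels, with overlapping intervals and combined intervals that span 0. None of the 10 genes was called by intervals lying apart, where 0.0256% of rows were higher and 0.094% lower with FGF1, and the second rule called 0.111% of rows higher and 0.145% lower.

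Transcript base composition moved with the PDGFA fold across the whole table, and some of these genes are GC-rich. Across 11510 rows of at least 200 nt, which are not independent replicates and share the same libraries, Spearman's rho between transcript GC content and the log2 fold was 0.610 with PDGFA and 0.183 with FGF1. The GC content was 55.2% for Id1, 55.6% for Id3, 56.9% for Smad7, 60.8% for Smad6 and 62.2% for Atoh8, against a median of 50.4% over those rows. Id2, Bambi, Id4 and Grem1 lay below it, at 42.4%, 44.0%, 42.6% and 44.7%. With a smooth trend on GC content, length and level removed, the PDGFA log2 folds were 1.95 for Id1, 1.29 for Id3, 1.05 for Atoh8 and 0.37 for Smad6, while those of the GC-poor Id2 and Bambi went up to 0.99 and 0.78. Among rows within 1 percentage point of its GC content, 0 of 815 exceeded the PDGFA log2 fold of Id2, 3 of 1196 rows exceeded Id1, 5 of 1158 exceeded Id3 and 1 of 192 exceeded Atoh8. For Smad6, 27 of 387 such rows had a larger fold, for Smad7 29 of 1025, for Bambi 4 of 1039 and for Bmp4 101 of 1226. For Id4 it was 209 of 840 and for Grem1 496 of 1042. The genes were chosen with these folds known, so nothing is read from these counts. What part base composition had in the PDGFA folds was not tested.

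**Figure D3:**
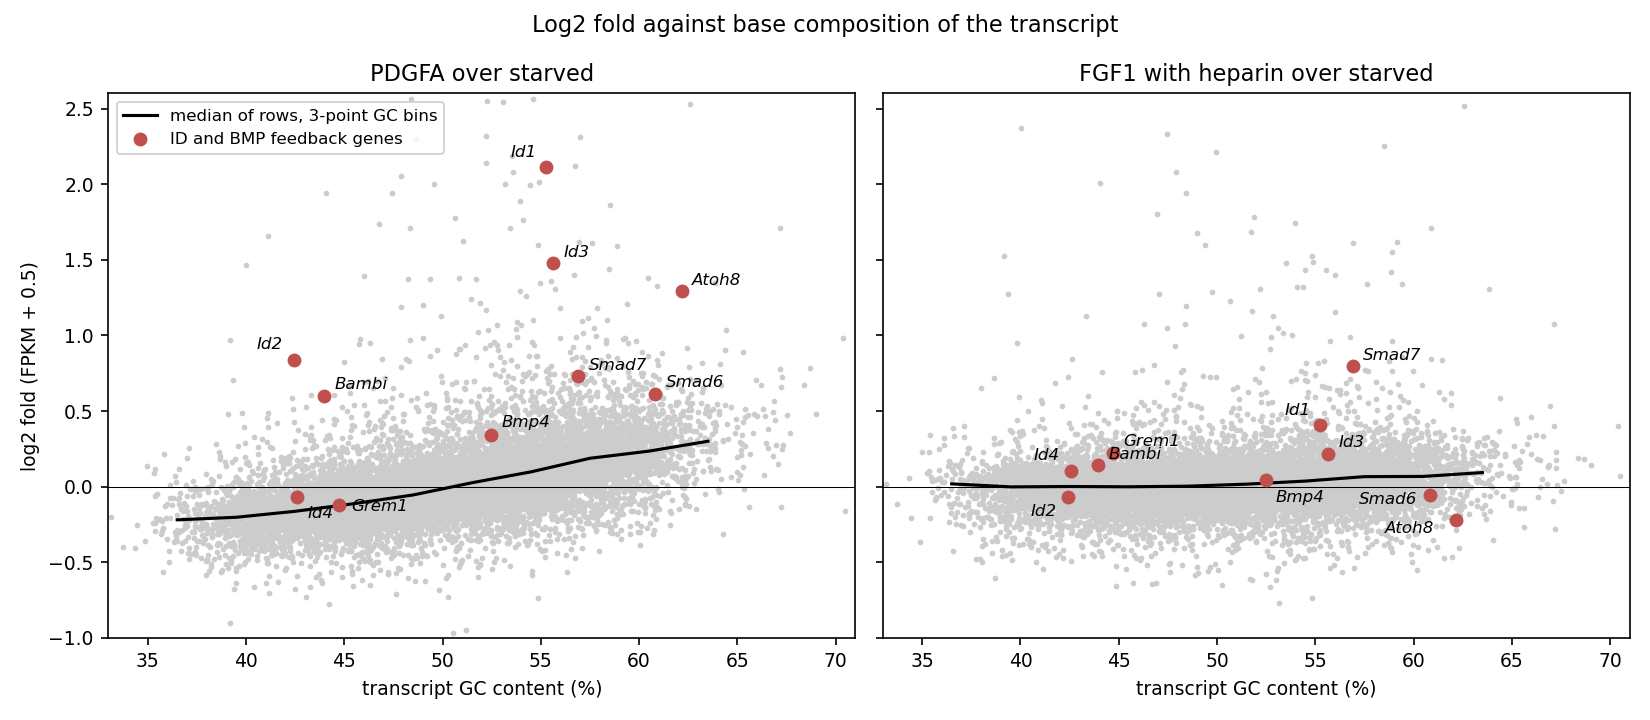
Log2 fold on FPKM + 0.5 (vertical) against GC content of the transcript in percent (horizontal) for compared rows of at least 200 nt (grey; some lie outside the axes) and the 10 genes (red), with PDGFA on the left and FGF1 on the right; the black line joins the medians of rows in bins 3 percentage points wide. With PDGFA the medians climb with GC content. Id1, Id2, Id3, Atoh8 and Bambi lie above the line, though the PDGFA intervals of Id2, Atoh8 and Bambi overlap those of starved cells. The genes were chosen with these folds known, so nothing is read from their place.

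Markers of other cell types were counted beside these results. Skeletal muscle markers summed to 23.2 FPKM in starved, 101 in PDGFA and 30.3 in FGF1 cells, and 2, 6 and 2 of 9 reached 1 FPKM. Most of that was the skeletal actin gene Acta1. The other 8 summed to 5.91, 13.7 and 5.74 FPKM. Of these, Mylpf had 2.49, 5.30 and 2.23 FPKM, Tnni1 0.704, 2.68 and 0.414, Des 0.751, 1.82 and 0.897, and Myog 0.687, 1.56 and 0.859. Tnnt1, Myh3 and Myod1 also stood higher with PDGFA than in starved cells, with Myod1 at 0.0712, 0.258 and 0.0439, while Ckm was listed at 0 in PDGFA and FGF1 cells. Of the 6 muscle markers compared, Acta1 alone had a PDGFA interval apart from that of starved cells. Most of the 9 muscle markers stood above their starved values with PDGFA, as Id1 and Id3 did. With FGF1, Acta1, Des, Myog, Tnnt1 and Myh3 stood above their starved values, as Id1 and Id3 did. Mylpf, Tnni1, Myod1 and Ckm stood below theirs. The part of muscle markers in the result was not tested. Endothelial markers, which matter because endothelium is rich in ID gene transcripts, summed to 12.2, 12.3 and 12.4 FPKM. Of 9 markers 3 reached 1 FPKM in each group: Flt1 at 8.32, 7.57 and 8.25 FPKM, Kdr at 2.03, 2.602 and 1.97, and Tek at 1.37, 1.39 and 1.52. Pecam1 and Cdh5 stayed under 0.1 and Tie1 was listed at 0. Epithelial markers summed to 3.66, 5.96 and 5.10 FPKM, of which Krt18 alone, 1 of 9, reached 1 FPKM, and Epcam stayed under 0.2. Blood markers (4 of 7 in the table) summed to 2.06, 1.77 and 1.90 FPKM, and glial and neuronal markers to 78.0, 95.1 and 87.6, nearly all of it Tubb3 and Stmn2. Of 12 palatal mesenchyme markers 10 reached 1 FPKM in each group. Tbx22 did not, at 0.0672, 0.0812 and 0.0919 FPKM in starved, PDGFA and FGF1 cells. Col1a1 was listed at 0 in all groups with a lower bound beyond any possible FPKM, the mark of a failed estimate.

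Promoter sequence of the set is given as a description. RefSeq promoter windows (GRCm38.p6) were at hand for 7 of the 10 genes: Id2, Id3, Id4, Smad6, Atoh8, Bmp4 and Grem1. The 250 bases before the start site were searched on both strands for GGCGCC, a GC-rich element bound by BMP SMADs, for the palindromic SMAD element GTCTAGAC, for the cyclic AMP element TGACGTCA, for the EGR motif GCGNGGGCG, for the ETS motif CCGGAAG, for the CArG box of serum response factor and for TATAAA. The following windows are shown as examples of an ID gene with 1 motif match, an ID gene with several and a pair of feedback genes with none. Capitals mark motif matches, each sequence runs 5′ to 3′ on the gene's strand, and of the Id2 window only the 89 bases outside annotated exons are printed.
Id2 (chr12:25096254-25096342, minus strand): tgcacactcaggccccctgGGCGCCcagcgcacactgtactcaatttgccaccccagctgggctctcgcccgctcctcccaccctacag
Id4 (chr13:48260866-48261115, plus strand): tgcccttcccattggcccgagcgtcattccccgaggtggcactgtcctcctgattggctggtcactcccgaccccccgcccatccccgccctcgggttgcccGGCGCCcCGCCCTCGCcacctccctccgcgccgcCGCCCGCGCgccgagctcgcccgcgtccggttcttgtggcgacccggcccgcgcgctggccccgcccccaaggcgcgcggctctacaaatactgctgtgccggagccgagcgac
Smad6 (chr9:64022060-64022309, minus strand): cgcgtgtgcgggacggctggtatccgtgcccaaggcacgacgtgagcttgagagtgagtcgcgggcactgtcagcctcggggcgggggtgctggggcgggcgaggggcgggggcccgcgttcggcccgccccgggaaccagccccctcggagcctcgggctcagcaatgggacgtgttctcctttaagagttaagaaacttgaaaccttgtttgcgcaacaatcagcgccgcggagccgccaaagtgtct
Atoh8 (chr6:72235578-72235827, minus strand): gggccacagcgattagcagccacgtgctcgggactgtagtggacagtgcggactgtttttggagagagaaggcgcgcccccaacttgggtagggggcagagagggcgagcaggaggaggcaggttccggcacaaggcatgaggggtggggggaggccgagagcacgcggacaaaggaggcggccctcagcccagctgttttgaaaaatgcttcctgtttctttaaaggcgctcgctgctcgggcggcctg

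The GC-rich element GGCGCC lay in 3 of the 7 windows, those of Id2 (positions -231 to -226 from the start site), Id4 (-148 to -143) and Grem1 (-78 to -73), and in 9.59% of 32851 RefSeq promoters. Id4 alone held the EGR motif, at 2 places that do not overlap the GGCGCC match, where 4.70% of all promoters hold it. Bmp4 alone held the ETS motif, found in 6.91%. No window held GTCTAGAC, TGACGTCA, the CArG box or TATAAA, which 0.167%, 1.55%, 1.47% and 12.4% of promoters hold. The windows of Id3, Smad6 and Atoh8 held none of the 7 motifs, which says only that these letters are not in these bases. The RefSeq spans of the minus-strand genes Atoh8 and Smad6 begin at chr6:72235780 and chr9:64022085, inside their windows. Part of each of these 2 windows therefore lies within the RefSeq gene. All 250 bases of the Id3 window lie in exons of longer GENCODE M21 transcripts, as do 161 of those of Id2. Their GC content ran from 62.8% for Id2 and Id3, above that of 78.3% of RefSeq promoters, to 75.6% for Id4.

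Around the set, 77 other genes of the pathway were counted in 6 lists by role, and 65 of them were compared. None was called higher or lower with PDGFA by either rule. Over all compared rows, 0.308% were called higher by the first rule and 0.53% by the second, with 0% and 0.0769% lower. With FGF1, 1 gene, Hes1, was called higher by intervals lying apart, where 0.538% of all rows were called higher and 0.0171% lower. At such shares few calls would fall among 65 genes in any case, so nothing is read from these counts. Hes1, a helix-loop-helix repressor better known as a Notch target, had 20.96 FPKM [14.5 to 26.1] in starved, 39.0 [20.2 to 57.9] in PDGFA and 49.7 [31.6 to 67.5] in FGF1 cells. By the second rule Skil, a corepressor of SMADs, was called higher with FGF1 as well, where 0.88% of all rows were called higher and 0.171% lower. Skil had 14.6 FPKM [11.5 to 17.7] in starved, 16.8 [8.77 to 24.8] in PDGFA and 23.8 [16.0 to 31.5] in FGF1 cells.

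Of the BMP and GDF ligands, 9 of 12 were compared, and their median log2 fold was -0.015 with PDGFA and 0.07 with FGF1. Bmp1, a procollagen and chordin protease rather than a true BMP ligand, was the highest at 70.6, 78.0 and 75.4 FPKM in starved, PDGFA and FGF1 cells, ahead of Gdf11 at 10.5, 12.5 and 10.4 and Bmp3 at 6.17, 6.11 and 5.87. All 11 receptors and co-receptors were compared, with medians of -0.0098 and -0.0031. The type I receptor gene Bmpr1a had 53.3, 41.9 and 52.4 FPKM, Acvr1, another type I receptor gene, 30.2, 30.0 and 29.7, and the co-receptor gene Eng 23.8, 23.8 and 26.6. These levels differed by less than their intervals.

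Extracellular antagonists and modulators (13 of 14 compared) had medians of 0.0078 with PDGFA and 0.15 with FGF1. The follistatin-related gene Fstl1 was the most abundant of them at 872, 816 and 863 FPKM, followed by the BMP-binding membrane protein gene Crim1 at 63.4, 74.3 and 73.4 and by the chordin protease gene Tll1 at 55.2, 47.3 and 55.6. The list of SMADs and nuclear regulators (12 of 13 compared) had medians of 0.14 and 0.06, with the corepressor gene Ski at 70.5, 74.5 and 68.5 FPKM, the antiproliferative gene Tob1 at 34.8, 41.3 and 39.5 and the shared partner gene Smad4 at 32.9, 32.4 and 34.2.

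Other genes that BMPs can induce (12 of 15 compared) had medians of 0.07 and -0.0036. The osteoprotegerin gene Tnfrsf11b had 77.0, 76.9 and 98.1 FPKM, the homeobox gene Prrx2 75.0, 93.3 and 86.8, and the palatal homeobox gene Msx1 59.8, 50.0 and 48.7, all with overlapping intervals. The helix-loop-helix factors that ID proteins can bind, or that pair with such factors (8 of 12 compared), had medians of 0.15 and 0.015. Twist1, a factor of craniofacial mesenchyme, had 60.1 FPKM [43.3 to 74.0] in starved, 94.4 [46.7 to 142] in PDGFA and 62.4 [40.4 to 84.3] in FGF1 cells. The E protein gene Tcf3 had 42.4, 53.4 and 44.4 FPKM, with overlapping intervals in all groups. The tendon factor gene Scx had 34.8, 48.3 and 42.3 FPKM with very wide intervals. The muscle factor gene Myod1 did not reach 1 FPKM in any group.

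**Figure D4:**
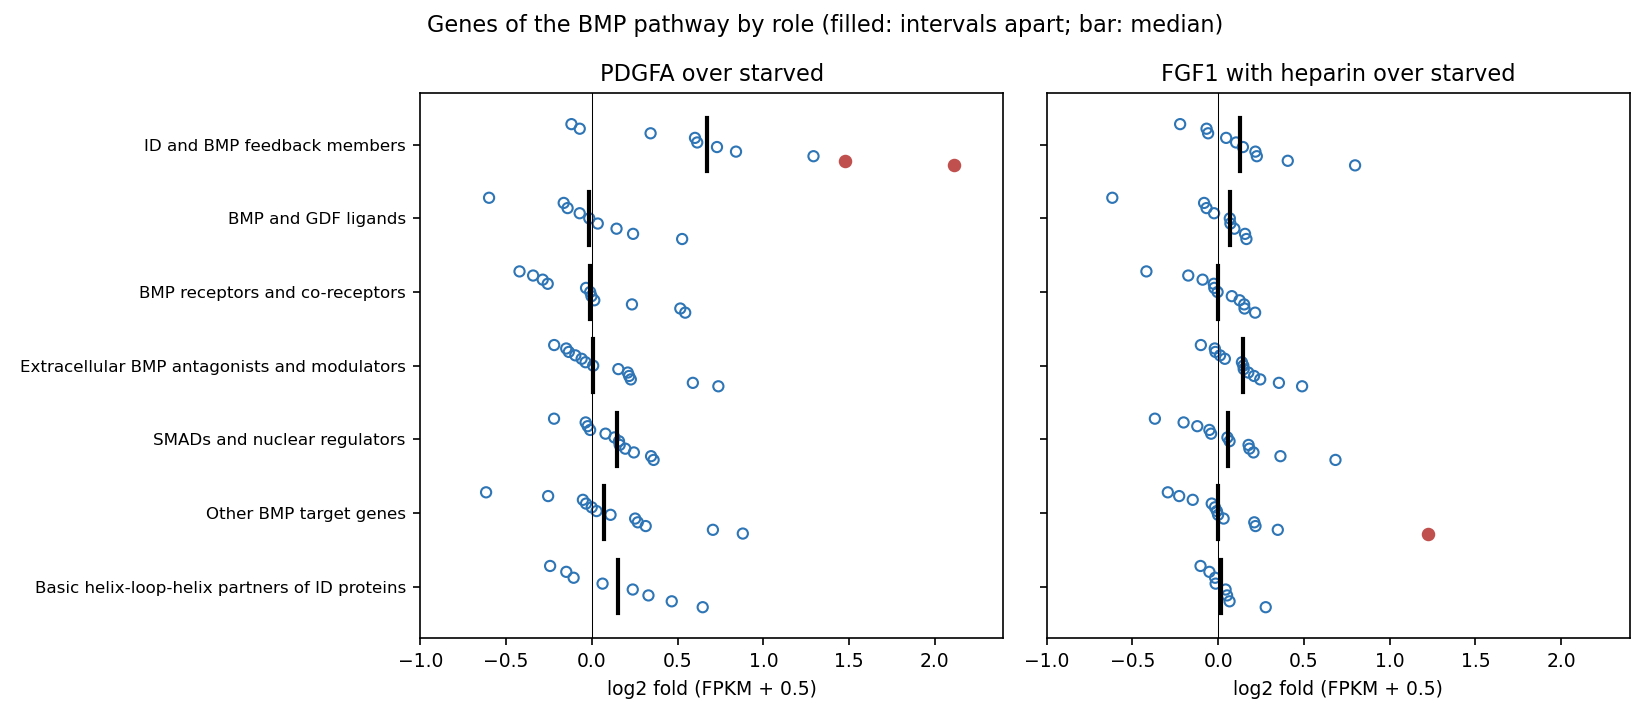
Log2 fold on FPKM + 0.5 (horizontal) of PDGFA over starved on the left and FGF1 with heparin over starved on the right, for the 10 genes and the compared genes of 6 other pathway lists; each circle is a gene, filled where the intervals lay apart, and bars mark list medians. The median of the 10 genes is 0.67 with PDGFA, and Hes1 is the filled circle with FGF1.

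The rows whose pair of log2 folds lay nearest to those of Id1 and of Smad7 were taken from the 8557 compared rows with at least 5 FPKM in starved cells. Nearest to Id1, at a distance of 0.219 on the log2 scale, was Acta1, with 17.2 FPKM in starved, 87.5 in PDGFA and 24.6 in FGF1 cells. It was also called higher with PDGFA by intervals lying apart. Next came the row shared by Epc1 and Mir1893 (0.322), the row shared by Stub1 and Mir3082 (0.353), Wdfy1 (0.373) and the row shared by Ripor1 and Mir1966 (0.387), none of which was called by intervals lying apart. The rows shared with a microRNA gene cannot be assigned to 1 gene.

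Smad7 had closer neighbours. The nearest was Vasn, which encodes a TGF-beta binding membrane protein, at a distance of 0.027 with 29.7, 49.1 and 51.1 FPKM in starved, PDGFA and FGF1 cells. Spry2, an inhibitor of receptor tyrosine kinase signalling, followed at 0.0444 with 11.7, 19.2 and 20.2 FPKM. Tnfrsf12a (0.0909), the glucose transporter gene Slc2a1 (0.0948) and Irf2bpl (0.095) completed the 5. None of these was called with either ligand by intervals lying apart. The likeness is over 2 log2 folds that share the starved group.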

How the data were processed

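Polyadenylated RNA from 11 libraries was sequenced. CASAVA, TopHat, Cuffdiff and the mm10 build are named, per the submitters' processing notes, with versions not given in the sources used here. For each gene the authors deposited 1 FPKM per group with a lower and an upper bound, so replicates were already combined and no test over libraries was possible. No counts are in the table and the depth is unknown, so no counting intervals or detection limits are given. Accessions were named from the RefSeq gene table (22992 rows) and GENCODE M21 (126), and 168 rows stayed unnamed. Rows were compared with at least 1 FPKM in a group, and 2 rows with failed estimates were left out. Log2 folds used FPKM + 0.5. GC content and length came from GENCODE M21 transcripts (99.4% of compared rows), and the trend was a robust cubic regression (statsmodels 0.14.6) on GC content, log2 length and log2 level. Comparing rows of like GC content was chosen after values were seen. Call rules and scaling were tested on made data with known answers, which checks the code and not the error rate of the calls here. The 10 genes, the pathway and marker lists and the rules were chosen with earlier results of these data known. Of each pathway list, called genes and otherwise up to 3 of the highest mean FPKM were named, and Myod1 and the genes of the marker lists were named after their values were seen. The alternatives were the scaling, the call rule, the minimum FPKM, the pseudocount and the trend.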

Additional observations from a re-analysis of the deposited data

How the results depend on the processing

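Id1 was called higher with PDGFA under all 7 alternatives tried. The count of called genes with PDGFA fell from 2 to 1 with upper-quartile scaling and to 1 with the trend on GC content, length and level removed, as Id3 lost its call in both, and the cause was not tested. With FGF1 the second rule gave 1 gene (Smad7) in place of 0, and between the ligands it gave 3 lower (Id1, Id3 and Atoh8) in place of 0, since it asks for less than full separation. The other alternatives left these counts within 1.5 times. Of 150 recomputed log2 folds 3 changed sign, all near 0: Id4 with PDGFA (0.05 with the trend removed) and Bmp4 with FGF1 (-0.02 with upper-quartile scaling and -0.04 with the trend removed). The count of other pathway genes called, recomputed with median-of-ratios scaling and with the trend removed, was 0, 1 and 0 in both. No paired analysis was possible because the table holds 1 value per group, and for the same reason the fit with a replicate block and leaving out each replicate in turn were not run. The width of the PDGFA intervals limits what can be called.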
